A study of Caenorhabditis elegans with 3 samples.

Results

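The genes described here are the hedgehog-related and patched-related genes of Caenorhabditis elegans, taken as every gene whose WormBase symbol is wrt, grd, grl, hog, qua, ptr or ptc followed by a number. Of 20392 measured genes, 86 met this rule: 59 hedgehog-related genes (10 wrt, 16 grd, 31 grl, 1 hog and 1 qua) and 27 patched-related genes (24 ptr and 3 ptc). The series holds 1 group of 3 libraries, replicates 1, 2 and 3, from whole animals of the wild-type strain N2 Bristol at mid-L4, the last larval stage, kept for 29 h at 25 °C on OP50 bacteria with no treatment. Values are TPM, an abundance per transcript length that sums to 1000000 in each library. Read depth cannot be had from TPM and is unknown here, and the error given is the SD over the 3 libraries. With 1 group there is no contrast between conditions, so no test was made, and a difference between libraries is a difference between single samples.

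In flies and vertebrates, Hedgehog is a secreted ligand whose C-terminal Hint domain cuts the precursor and attaches cholesterol to the signalling part, and Patched is the membrane receptor, a relative of sterol transporters. Nematodes have no clear Hedgehog or Smoothened, but they have large families of secreted proteins that carry a Hint domain or resemble those that do: warthog (wrt), groundhog (grd), ground-like (grl), quahog (qua) and hog. They also have Patched proteins (ptc) and an expanded family of patched-related proteins with a sterol-sensing domain (ptr). In the worm these genes are known mainly for roles in the epidermis, the cuticle and the molt.

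Levels ranged widely among the 86 genes: 22 had a mean of 10 TPM or more, 49 of 1 TPM or more, and 19 of under 0.1 TPM. Detection was set at a minimum of 1 TPM in each of the 3 libraries, which 61.1% of all genes and 40 of the 86 members (46.5%) reached. Another 15 members reached 1 TPM in 1 or 2 libraries, and 11 of these 15 were highest in replicate 1, beside 50.3% of all genes that did so. A further 31 members stayed below it in every library, and 4 of these (grl-23, grl-25, grl-28 and grl-30) were listed at 0 throughout, as were 6.19% of all genes. The median log2(TPM + 1) of the members was 1.38 ± 0.27 (SD of the library medians, n = 3), beside 2.13 ± 0.05 for all genes. The families differed in this respect. Of the patched-related genes 19 of 27 were detected (70.4%), and of the hedgehog-related genes 21 of 59 (35.6%), with 6 of 10 wrt, 5 of 16 grd and 8 of 31 grl genes. The median log2(TPM + 1) of the hedgehog-related genes minus that of the patched-related genes was -1.93 ± 0.29, and -1.65, -2.22 and -1.92 in replicates 1, 2 and 3. When only members averaging 1 TPM or more were kept, it was -0.29 ± 0.68, smaller than its spread between libraries. Because whole animals were sequenced, a gene expressed in fewer cells and one with less RNA per cell cannot be told apart.

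**Figure D1:**
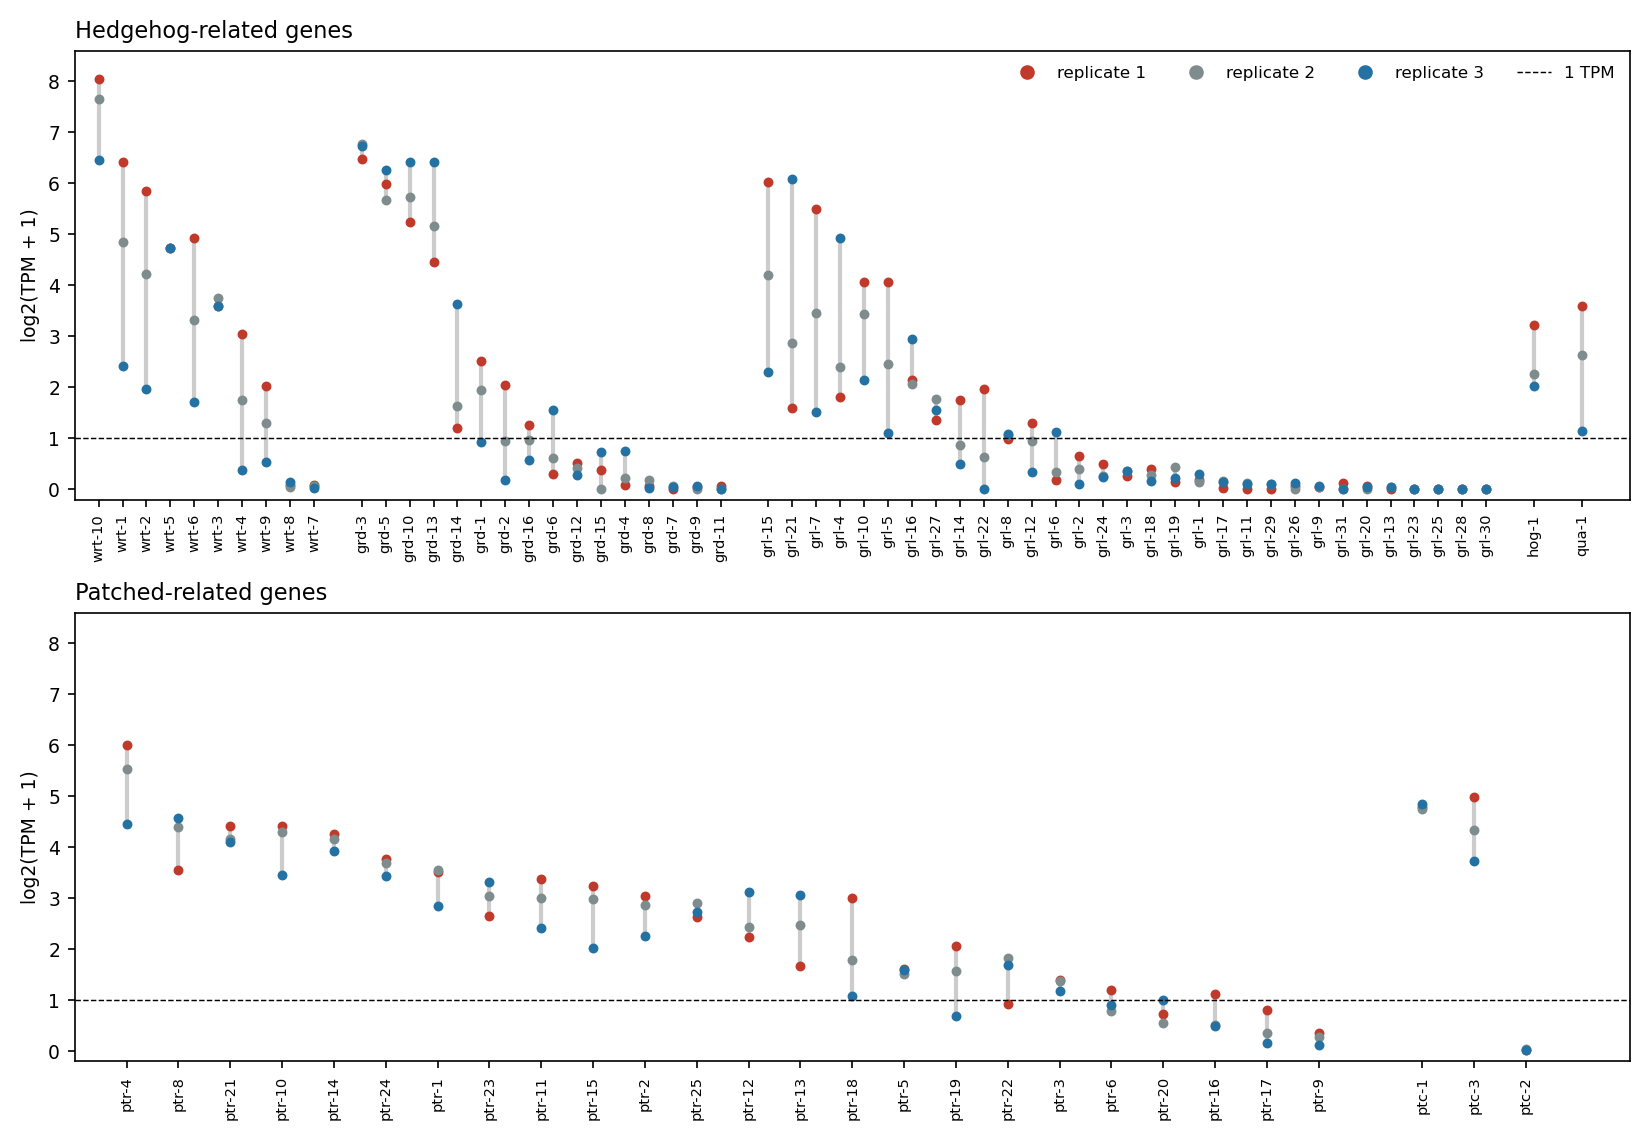
Level of each of the 86 members as log2(TPM + 1) in replicates 1 (red), 2 (grey) and 3 (blue), ordered by mean TPM within each family; grey bars span the 3 libraries and the dashed line marks 1 TPM. Of the hedgehog-related genes 21 of 59, and of the patched-related genes 19 of 27, lie at or above the line in all libraries. Long bars include those of wrt-1, wrt-2, grl-7 and grl-21, whereas the bars of wrt-3 and wrt-5 are short. Most grl bars are also short, but these genes lie near 0, where the added 1 shrinks ratios. Of the 8 detected grl genes 7 differed at least 2-fold.

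Among the warthog genes, wrt-10 had the highest mean TPM of all 86 members, although grd-3 was higher in replicate 3 (105 TPM). wrt-10 lies on chromosome II (7533262 to 7534563, minus strand; positions are from the WBcel235 annotation) and had 264, 199.6 and 86.3 TPM in replicates 1, 2 and 3. Its mean of 183 ± 89.8 TPM (SD, n = 3) stood at percentile 97.5 of all genes, and its highest value was 3.05 times its lowest. The next gene, wrt-1 (chromosome II, 7530996 to 7533246), had 84.7, 27.6 and 4.34 TPM, and wrt-2 (X, 3092395 to 3094349) had 57.0, 17.6 and 2.92 TPM. For both, the highest library was 19.5 times the lowest. wrt-6 (X, 3480250 to 3483666) had the same order at 29.4, 9.03 and 2.30 TPM. All 4 were highest in replicate 1 and lowest in replicate 3, an order that 27.8% of all detected genes had.

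Outside that order, wrt-5 and wrt-3 hardly differed between libraries. wrt-5 (chromosome IV, 4050006 to 4051639), which is needed for embryonic development, had 25.5, 25.7 and 25.4 TPM, a ratio of 1.01 that was the smallest of any detected member. wrt-3 (chromosome IV, 9473633 to 9477456), which overlaps another annotated gene on the same strand, had 11.1, 12.5 and 11.03 TPM. A family member could therefore differ by a factor of 19.5 between the same libraries in which another of like abundance, wrt-5 beside wrt-2 (means of 25.5 and 25.9 TPM), differed by 1.01. wrt-4 (7.24, 2.36 and 0.307 TPM) and wrt-9 (3.07, 1.47 and 0.446 TPM) were again highest in replicate 1, but fell short of 1 TPM in replicate 3. wrt-7 and wrt-8 averaged 0.0391 ± 0.0245 and 0.0667 ± 0.0346 TPM.

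Of the 5 detected groundhog genes, 3 (grd-10, grd-13 and grd-14) had the reverse order, highest in replicate 3 and lowest in replicate 1. Over all detected genes the share with that order was 26.7%. grd-3 (chromosome IV, 3439655 to 3440453) was the most abundant, with 88.7, 109 and 105 TPM, and its libraries lay within a ratio of 1.22. grd-5 (V, 8619032 to 8619870) had 62.2, 49.9 and 75.2 TPM. grd-10 (chromosome IV, 3441055 to 3441841) had 36.8, 52.0 and 84.4 TPM. These 3 were above 36 TPM in every library, with replicate 3 highest for grd-5 and grd-10. grd-13 (chromosome IV, 3438312 to 3439507) had 21.0, 34.8 and 84.1 TPM, and grd-14 (X, 8500021 to 8501037) had 1.31, 2.11 and 11.5 TPM. Of the 5 detected grd genes, 0 were highest in replicate 1, 1 was highest in replicate 2 and 4 were highest in replicate 3. Over all detected genes 39.8% were highest in replicate 1 and 40.2% in replicate 3. The undetected grd genes did not share one order: grd-1 (4.72, 2.85 and 0.902 TPM), grd-2 (3.16, 0.926 and 0.141 TPM) and grd-16 (1.39, 0.961 and 0.491 TPM) were highest in replicate 1, and grd-6 (0.239, 0.536 and 1.95 TPM) in replicate 3.

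Of the 8 detected ground-like genes, 4 were highest in replicate 1 and lowest in replicate 3, and 2 had the reverse order. The shares over all detected genes were 27.8% and 26.7%. The ground-like genes encode short secreted proteins, with a median annotated coding length of 636 nt, beside 2701.5 nt for the ptr genes. grl-15 (chromosome III, 12232632 to 12236014) had 64.5, 17.5 and 3.94 TPM. grl-7 (V, 11344828 to 11347012) had 44.3, 9.93 and 1.88 TPM, and grl-5 (V, 4412748 to 4414663) had 15.8, 4.52 and 1.15 TPM. These 3 were highest in replicate 1 and lowest in replicate 3. Against these, grl-21 (chromosome IV, 10737474 to 10738191) had 2.03, 6.32 and 66.4 TPM, a ratio of 32.7 that was the largest of any detected member. grl-4 (chromosome IV, 7309838 to 7310760) had 2.51, 4.30 and 29.4 TPM. The most abundant ground-like gene was thus grl-15 in replicates 1 and 2, and grl-21 in replicate 3.

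grl-10 had 15.8, 9.78 and 3.43 TPM. Its annotated 3′ end overlaps that of the abundant ribosomal protein gene rpl-39 on the other strand, and the sources used here do not give the strand setting of the quantification. The remaining detected ground-like genes were grl-16, lowest in replicate 2, with 3.39, 3.17 and 6.74 TPM, and grl-27 with 1.55, 2.40 and 1.95 TPM. Near the detection limit, grl-14 (2.38, 0.825 and 0.412 TPM), grl-12 (1.47, 0.925 and 0.264 TPM) and grl-22 (2.91, 0.559 and 0 TPM) were highest in replicate 1. grl-6 (0.142, 0.264 and 1.19 TPM) was highest in replicate 3. grl-8 stayed at the limit with 0.994, 1.09 and 1.13 TPM. Of the other 18 grl genes none had a mean above 0.5 TPM; they include grl-2 (0.326 ± 0.253 TPM) and grl-18 (0.219 ± 0.101 TPM), whose promoters mark single tube-forming cells or glia.

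Both single-member families were present. qua-1 (chromosome II, 8198803 to 8204004), which is required for molting, had 11.1, 5.20 and 1.201 TPM, a ratio of 9.28. hog-1 (X, 5851953 to 5854263) had 8.36, 3.80 and 3.07 TPM. Both carry a Hint domain, as do wrt-1, wrt-4, wrt-6, wrt-7, wrt-8, grd-1, grd-2 and grd-11. These 10 genes, assigned from background knowledge of the families and not from sequence, had a median 1.27 ± 1.05 log2 units above that of the 49 hedgehog-related genes without one. The difference was 2.26, 1.40 and 0.16 in replicates 1, 2 and 3. It depended on the genes near 0: among genes averaging 1 TPM or more, the difference reversed to -1.27 ± 0.50. The 4 detected Hint genes (wrt-1, wrt-6, hog-1 and qua-1) were all highest in replicate 1 and lowest in replicate 3. Of all detected genes 27.8% had this order. Among the undetected Hint genes wrt-8 was highest in replicate 3 and the others had this order, with wrt-7 and grd-11 averaging under 0.1 TPM. The summed level of the 10 was 149, 51.9 and 12.4 TPM, and that of the 49 others 732, 570 and 610 TPM. The largest part of the first sum was wrt-1, with 84.7, 27.6 and 4.34 TPM.

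**Figure D2:**
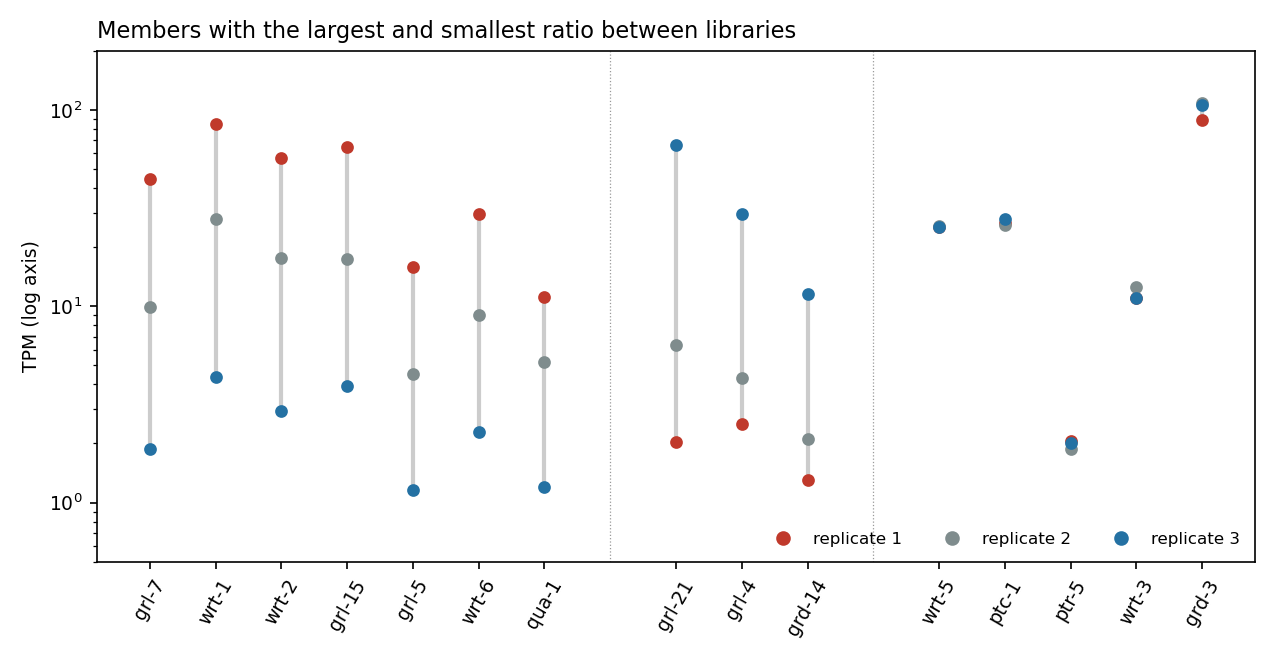
TPM on a log axis for the 10 detected members with the largest ratio between libraries (left, highest in replicate 1; middle, highest in replicate 3) and the 5 with the smallest ratio (right); red, grey and blue points are replicates 1, 2 and 3. In the left panel grl-7 spans 44.3 to 1.88 TPM, in the middle grl-21 spans 2.03 to 66.4 TPM, and at right wrt-5 stays between 25.4 and 25.7 TPM.

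On the receptor side, the Patched genes proper differed among themselves. ptc-1 (chromosome II, 7893222 to 7900515), needed for cytokinesis in the germ line, had 26.6, 26.02 and 27.9 TPM. ptc-3 (II, 2845412 to 2852593), whose product exports cholesterol and which is essential for larval growth, had 30.6, 19.4 and 12.4 TPM. The ptc-1 libraries lay within a ratio of 1.07, and those of ptc-3 spanned 2.48. Replicate 1 thus held more ptc-3 than ptc-1, and replicates 2 and 3 held less. ptc-2, annotated as a pseudogene, averaged 0.0202 ± 0.00846 TPM.

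By mean TPM the patched-related family was led by ptr-4 (X, 6060758 to 6065986), which is needed for molting and for the barrier function of the cuticle. It had 63.5, 45.5 and 20.9 TPM, highest in replicate 1. ptr-8 (II, 10889279 to 10893277) had the opposite order, with 10.7, 20.04 and 22.96 TPM, and was above ptr-4 in replicate 3. ptr-21 (chromosome I, 550696 to 556709) differed little, at 20.3, 16.9 and 16.3 TPM. ptr-10, whose promoter is used to mark glia, averaged 16.4 ± 5.62 TPM, ptr-14 16.4 ± 2.06 TPM and ptr-24 11.5 ± 1.46 TPM. ptr-18 had 6.99, 2.45 and 1.12 TPM, the same order as grl-5 and grl-7, and ptr-13 had 2.19, 4.54 and 7.39 TPM. Of the 17 detected ptr genes 11 were highest in replicate 1, 2 in replicate 2 and 4 in replicate 3. These last 4 were ptr-8, ptr-12, ptr-13 and ptr-23. Over all detected genes 39.8% were highest in replicate 1 and 40.2% in replicate 3.

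The middle of the family lay between 4.71 and 9.16 TPM: ptr-1, ptr-2, ptr-11, ptr-12, ptr-13, ptr-15, ptr-23 and ptr-25. ptr-2, which is needed for cytokinesis in the embryo, averaged 5.77 ± 1.76 TPM. Near the detection limit ptr-5 (2.06, 1.87 and 2.02 TPM) and ptr-3 (1.64, 1.61 and 1.26 TPM) were detected. ptr-19 (3.16, 1.98 and 0.608 TPM), ptr-22 (0.899, 2.54 and 2.22 TPM), ptr-6 (1.29, 0.727 and 0.886 TPM), ptr-16 (1.18, 0.430 and 0.413 TPM) and ptr-20 (0.662, 0.471 and 0.996 TPM) were not. The lowest were ptr-17 (0.382 ± 0.328 TPM) and ptr-9 (0.195 ± 0.0937 TPM). No ptr gene was listed at 0 in any library, unlike 4 of the 31 grl genes that were at 0 in all of them.

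Differences between libraries were large for these genes beside the whole table. In 25 of the 40 detected members (62.5%) the highest library was 2 or more times the lowest, beside 15.4% of all detected genes. The share was 16 of 21 among detected hedgehog-related genes and 9 of 19 among detected patched-related genes, and the median ratio was 4.60 and 1.89, beside 1.26 for all detected genes. The count fell to 13 of 44 members without replicate 3 (6.77% of all genes so tested), and was 17 of 42 without replicate 1 (5.49%) and 24 of 40 without replicate 2 (14% of all genes so tested). It was 7 of 18 members with a minimum of 5 TPM in each library (9.19% of all such genes), 33 of 49 with a mean of 1 TPM or more (20.3%), and 16 of 40 for a 3-fold difference (6.99%). Of the detected members 22 were highest in replicate 1, beside 39.8% of all detected genes. The 2-fold members were 16 that were highest in replicate 1 and lowest in replicate 3 (9.01% of detected genes did this), 8 of the reverse order (4.01%), and grl-16, which had another order. Of the 25, 18 differed more between replicates 2 and 3 than between 1 and 2 on the log2 scale, beside 46.5% of all 2-fold genes. The median absolute difference of the detected members was 0.41 log2 units between replicates 1 and 2 and 0.69 between replicates 2 and 3, beside 0.16 and 0.15 for all detected genes.

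**Figure D3:**
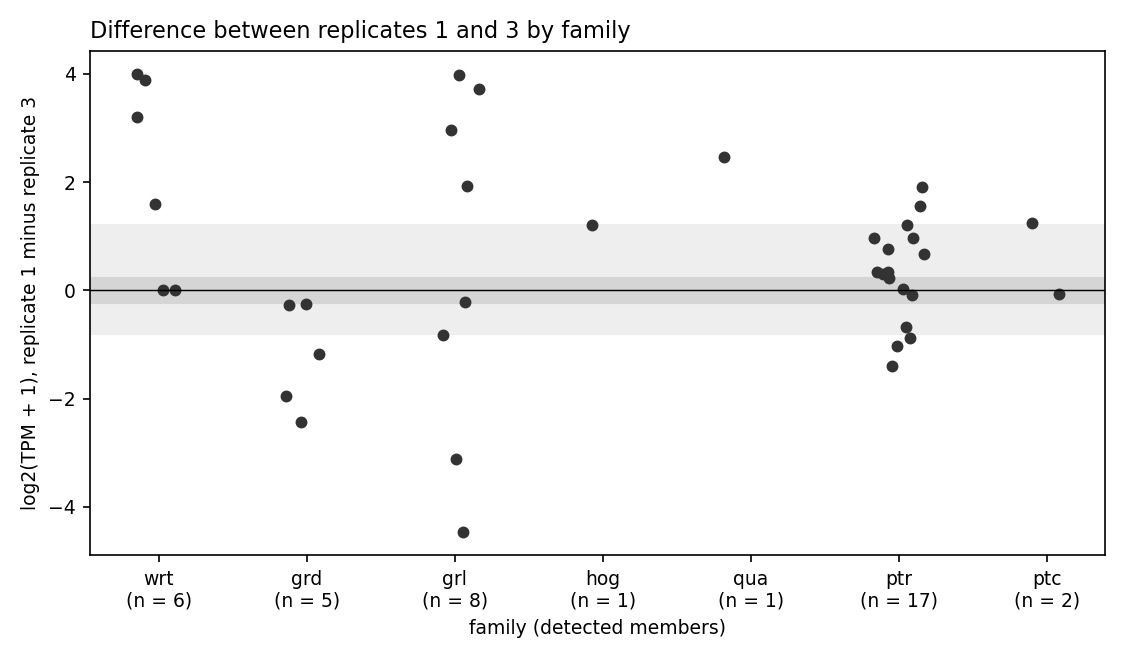
Difference in log2(TPM + 1), replicate 1 minus replicate 3, for each of the 40 detected members by family. The light and dark bands hold the middle 90% (-0.81 to 1.22) and 50% (-0.22 to 0.23) of all 12454 detected genes; wrt-1 lies at 4.01 and grl-21 at -4.47.

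Most listed genes of the molt and the cuticle were highest in replicate 1 and lowest in replicate 3. Of 16 detected genes of a molting list (17 of 18 matched), 12 had this order and 0 had the reverse order. The other 4 were highest in replicate 2, and 9 of the 16 differed at least 2-fold. The undetected nhr-25 of this list had the reverse order (0.193, 0.322 and 0.695 TPM). The 17 matched genes summed to 1395, 1010 and 500.3 TPM in replicates 1, 2 and 3. All 6 furrow collagens (1050.5, 645 and 216 TPM summed) were highest in replicate 1 and lowest in replicate 3. So were all 5 detected of 6 late cuticle genes (1085, 457 and 104 TPM summed), while the adult collagen gene col-19 was undetected (0.0255 ± 0.0241 TPM). Of the 31 major sperm protein genes, 29 were detected and 28 had this order, with sums of 2209, 864 and 500.2 TPM. Among detected genes as a whole, 27.8% were highest in replicate 1 and lowest in replicate 3 and 26.7% had the reverse order. The members comprised 21 of 40 with the first order and 9 with the reverse. These 9 were grd-10, grd-13, grd-14, grl-4, grl-21, ptr-8, ptr-12, ptr-13 and ptr-23. No detected gene of the molting, furrow collagen or late cuticle lists had the reverse order. Sums over marker lists of other tissues were steadier. They were 2517, 2539 and 2581 TPM for body wall muscle and 713, 697 and 706 TPM for intestine. For neurons they were 80.0, 80.3 and 78.1 TPM, and for germ line 106, 111 and 112 TPM. All 16 of these markers were detected, and none differed 2-fold between libraries. The sums hide smaller differences between single markers. Most of the intestine sum was act-5 (682, 662 and 674 TPM), beside which elt-2 had 5.53, 6.89 and 8.47 TPM. Of the germ line markers 2 were highest in replicate 1 and lowest in replicate 3, and 2 had the reverse order. Epidermis markers, of which 6 of 8 were detected, summed to 214, 184 and 153 TPM. Without dpy-7, which is also a furrow collagen, the other 7 summed to 92.7, 93.6 and 112 TPM. Most of that sum was vab-10 (56.8, 64.3 and 84.4 TPM). By contrast, lin-26 (18.9, 14.7 and 12.3 TPM) and che-14 (4.74, 2.47 and 1.05 TPM) were lowest in replicate 3. Of the 6 detected epidermis markers 4 were highest in replicate 1 and 2 in replicate 3. Seam cell markers (2 of 6 detected) summed to 7.27, 9.11 and 8.81 TPM, glia markers (4 of 6 detected) to 37.9, 30.7 and 23.3 TPM and pharynx muscle markers (3 of 3) to 177, 219 and 233 TPM. No marker was listed at 0 in all libraries. The part of any of these in the members' differences was not tested.

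**Figure D4:**
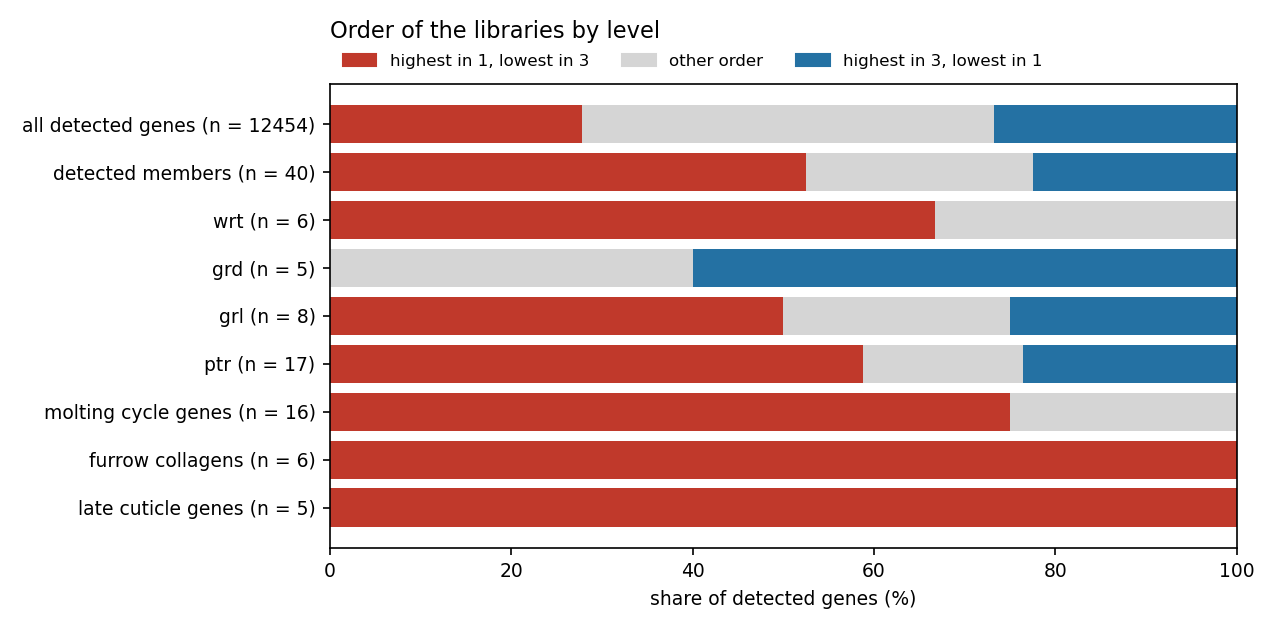
Share of detected genes that were highest in replicate 1 and lowest in replicate 3 (red), of the reverse order (blue) or of another order (grey), for all detected genes, the detected members, 4 families and 3 lists of molting and cuticle genes; n is the number of detected genes. The red share is 27.8% for all detected genes, 52.5% for the members, 66.7% for wrt and 0 for grd.

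Several members lie next to each other in the genome, and some neighbours shared their order of libraries. grd-13, grd-3 and grd-10 lie head to tail on the plus strand of chromosome IV within 3530 bp (3438312 to 3441841), with no other protein-coding gene between them. They are 3 of the 4 most abundant grd genes, and all 3 were lowest in replicate 1. So was grd-14 on X, and the share of all genes lowest in replicate 1 was not computed. wrt-1 and wrt-10 lie on opposite strands within 3568 bp of chromosome II, and both were highest in replicate 1 and lowest in replicate 3. That order was shared by 4 of the 6 detected wrt genes, 52.5% of detected members and 27.8% of all detected genes. grd-14 and grd-4 lie within 2268 bp of X, and both were highest in replicate 3, although grd-4 averaged 0.300 ± 0.333 TPM. Of the 5 detected grd genes 4 were highest in replicate 3, beside 40.2% of all detected genes. Shared orders were thus not particular to neighbours. Pairs and groups near 0 also lay together: wrt-7 and wrt-8 on chromosome V, and grl-28, grl-29, grl-30 and grl-31 within 6433 bp of it (3551346 to 3557778), with means from 0 to 0.0517 TPM. Other neighbours differed in level: grl-9 and grl-8 had means of 0.0353 and 1.07 TPM within 2880 bp, grd-4 and grd-14 of 0.300 and 4.97 TPM, and wrt-1 and wrt-10 of 38.9 and 183 TPM. How reads were split between adjoining gene models is unknown, so neighbours may not be independent values.

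Of 17 genes in a list of hedgehog signalling and sterol-sensing relatives, 16 were matched and 15 detected. Of these 15, 3 differed at least 2-fold, a share near the 15.4% of all detected genes. These 3 were che-14, related to Dispatched and needed for secretion at apical surfaces (4.74, 2.47 and 1.05 TPM), hhat-1, named for the acyltransferase that lipidates Hedgehog (22.8, 13.3 and 5.99 TPM), and ncr-2, a relative of the Niemann-Pick C1 cholesterol transporter (2.56, 1.90 and 1.15 TPM). All 3 were highest in replicate 1 and lowest in replicate 3. The GLI homologue tra-1, which in worms acts in sex determination, had 10.7, 11.1 and 11.9 TPM. The kinase-related genes kin-1 (19.5 ± 1.82 TPM), kin-2 (47.9 ± 2.28 TPM) and gsk-3 (9.09 ± 1.87 TPM) differed less than 2-fold. The same was true of the glypican genes lon-2 (5.77 ± 0.555 TPM) and gpn-1 (4.58 ± 0.908 TPM). The heparan sulphate polymerase genes rib-1 (8.02 ± 0.777 TPM) and rib-2 (4.37 ± 0.725 TPM) also differed less than 2-fold. So did ncr-1 (6.03 ± 1.13 TPM), hhat-2 (3.29 ± 0.501 TPM), scp-1 (8.88 ± 0.431 TPM) and lrp-1, a megalin relative needed for molting (45.5 ± 12.8 TPM). ptd-2, the undetected gene of the list, averaged 0.361 ± 0.0549 TPM. che-14 also stands in the epidermis list and lrp-1 in the molting list, and the epidermis list shares dpy-7 with the furrow collagens and nhr-25 with the molting list.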

How the data were processed

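Per the labels' protocols, stranded libraries were made from Trizol-extracted, DNase-treated total RNA of whole animals after depletion of rRNA (Ribo-Zero Gold). Quantification was with kallisto, per the submitters' processing notes. Its version, index, strand setting and gene summing, and the genome build, are each not given in the sources used here: these steps are unknown. The authors deposited TPM per gene and library, and a mean TPM that equalled the mean of the 3 columns within 6.67e-06. Because TPM is relative, a change in abundant genes moves all others.

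Names were looked up in the WBcel235 annotation, Ensembl release 115 (20133 of 20392, 98.7%), then to RefSeq symbols, which gave ptc-2. Levels were computed as log2(TPM + 1), a list's level as its median in each library, with Python 3.11.15, numpy 2.4.6 and pandas 2.3.3. The counting code was checked on simulated data with known answers; no count was tested. Members and lists were chosen with earlier results of these data known. Values per library were given for the 3 most abundant wrt, grd, grl and ptr genes and every ptc, qua and hog gene. They were also given for the 10 largest and 5 smallest ratios, and members with a mean of 0.5 to 2 TPM. Genes singled out after their values were seen were wrt-4, grd-1, grd-13, grl-10, grl-16, ptr-13, ptr-18, che-14, hhat-1, ncr-2, tra-1 and col-19. So were the markers vab-10, lin-26, act-5, elt-2, lit-1 and kcc-3, and nhr-25 of the molting list. disp-1 and bus-8 matched no gene. The planned promoter motifs and protein features were not analysed here. Alternatives were other pseudocounts, detection and fold limits, a filter on low means, rescaling, naming tables and leaving out each replicate.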

Additional observations from a re-analysis of the deposited data

How the results depend on the processing

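No paired analysis was possible because the series holds 1 group. Of 91 recomputed values, 65 stayed within the spread between libraries or, for counts, within 1.5 times. This count does not measure robustness. Leaving out 1 of 3 libraries cannot move a mean of library medians by more than their SD, so those values were bound to stay. Detection at 5 TPM gave 18 detected members, 7 that differed at least 2-fold and 7 highest in replicate 1, beside 40, 25 and 22 at 1 TPM. A 3-fold limit gave 16 members (6.99% of all detected genes). With a pseudocount of 0.1, medians were 0.76 for all members, -0.30 for grd, -1.70 for grl and 2.31 for ptr, and the hedgehog-related minus patched-related difference was -2.89. With a pseudocount of 5 they were 2.73, 2.52, 2.38 and 3.30, and -0.86. With a mean of at least 1 TPM required they were 2.93, 5.29, 1.98 and 2.96, and -0.29, and the difference between genes with and without a Hint domain reversed to -1.27. With totals that left out the 100 most abundant genes, which multiplied TPM by 2.23 to 2.30, they were 2.20, 1.40, 0.56 and 3.58, and -2.41. Leaving out each replicate gave 13 to 24 members at least 2-fold, 40 to 44 detected, and differences between hedgehog-related and patched-related genes of -2.07 to -1.78. Median-of-ratios rescaling and the choice of naming table moved no value beyond these limits. The rescaling factors were only 0.995 to 1.006, and the other naming table gave the same values. These settings change the scale or the set of genes by construction. Depth is unknown, so whether a value under 1 TPM differs from 0 could not be judged.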

Other observations

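Chromosome V holds 32 of the 86 genes (37.2%), among them 19 of the 31 grl genes, beside 25.3% of all genes with a position. Of these 32 members 7 were detected, beside 46.4% of all genes on chromosome V. Chromosome I holds 9 members, of which 7 are ptr genes, and 7 of the 9 were detected, beside 73.1% of all its genes. Chromosome II holds 12, with all 3 ptc genes, and 9 were detected, beside 58.5% of all its genes. These shares were not tested.

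The patched-related gene daf-6, which shapes the channel that glia form around sensory endings, is outside the naming rule because it carries another symbol, and was added after the values were seen. It had 8.75, 5.11 and 1.29 TPM in replicates 1, 2 and 3, the order of ptr-4 and ptr-18. The members grd-8, grl-29 and grl-31 each had values identical to 1 other gene, all 3 with means under 0.1 TPM. On the other strand, 26 members overlap another annotated gene, among them wrt-2, grl-15, hog-1, ptr-8, ptr-10 and ptr-18. On the same strand 3 members overlap another annotated gene: wrt-3, grd-12 and grl-24. The share of all genes with either overlap was not computed, so these counts are not a trait of the members.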
